A study of Thermothelomyces thermophilus ATCC 42464 with 8 samples.

Results

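MYCTH_112204 and MYCTH_82981 are 2 of the 9110 genes counted by RNA-seq in *Myceliophthora thermophila*, a thermophilic filamentous fungus. Both have subunit c of the mitochondrial ATP synthase as their best match in *Saccharomyces cerevisiae*. They were picked because their transcripts moved in opposite directions between strains, so the values that picked them are described here without a test. RNA came from the mycelium of 4 strains with 2 libraries each, sampled 4 h after mycelium grown for 24 h in 2% glucose had been moved to 1% d-xylose (45 °C, shaken at 150 rpm). The starting strain, JG207, was itself engineered and overexpresses *Aomae*, a malate transporter gene, and *Aopyc*, a pyruvate carboxylase gene. The other strains were built from it and share these genes. DF1102 is labelled as a deletion of *Mtxyl1*, which encodes a d-xylose reductase, the first enzyme of the usual fungal route of d-xylose use. DF1406 carries the same deletion label and overexpressed the Weimberg pathway genes *Mtxyd1*, *xylD*, *xylX* and *xylA*. This pathway oxidises d-xylose without phosphorylating it. DF1501 carries it too and overexpressed *Mtxyd1*, *xylD*, *BxxylX* and *KsaD* of the same pathway. The pathway genes had entered the genome in several copies, so each of DF1406 and DF1501 stands for its own insertions as well as for its gene set.

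The ATP synthase of the inner mitochondrial membrane makes ATP from ADP and phosphate. Its membrane part, F0, holds a ring of identical subunit c molecules that turns as protons pass, and the turning drives the catalytic alpha and beta subunits of the F1 part through the central stalk. In *S. cerevisiae* subunit c is encoded in the mitochondrial genome, whereas many filamentous fungi encode it in the nucleus. In *Podospora anserina*, another filamentous ascomycete, a pair of nuclear genes encodes it, and their transcript levels differ over the life cycle.

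Depth was similar throughout, with 20727346 to 21408353 counts in a library. *Mtxyl1* (MYCTH_43671) stood at 1676 to 1773 RPKM (counts scaled to gene length and library total) in JG207 libraries, and at 383 to 412 in strain DF1102, 102 to 109 in strain DF1406 and 228 to 252 in strain DF1501. It was lower than in JG207 in every strain labelled as its deletion, but still well expressed, at ranks 233 and 266 of 9110 genes by RPKM in the DF1102 libraries. Reads of this gene were thus still counted in strains labelled as its deletion. Their position within the gene was not analysed here, so each direction given below is between strains as labelled. The study describes a deletion donor with a stop codon for this gene as well as a donor with a marker. It reports that d-xylose use was hindered in DF1102 and that growth returned when the gene was put back. The libraries of DF1501 differed more from each other than those of the other strains, with a root mean square deviation from the strain mean of 0.202 in log2 CPM (counts scaled to library total only) against 0.137 to 0.155. Whether libraries from 1 strain are separate cultures is not stated in the sources used here, so p-values reflect only how far these libraries differ, and that spread may be technical.

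MYCTH_112204 had its highest level in JG207 and its lowest in DF1102. The JG207 libraries held 1854 and 2236 RPKM of this transcript, and the DF1102 libraries 207 and 240.0 RPKM. Those of DF1406 held 731 and 671 RPKM, and those of DF1501 held 1028 and 1269 RPKM. No 2 strains overlapped, but this gene was picked for its change, and how many of all genes separate likewise was not counted. The order from high to low was JG207, DF1501, DF1406 and DF1102. The larger library exceeded the smaller by at most 1.23 times in RPKM within a strain. In the edgeR folds given below, which use counts scaled by TMM factors, neighbouring strains in this order differed by 1.56 times or more. By RPKM it ranked 48 and 30 among the 9110 genes in the JG207 libraries, and 531 and 458 in the DF1102 libraries. These values rest on 5830 counts in the lowest library and 63717 in the highest, so counting error is small beside the spread between libraries. Whole mycelium was measured, so fewer cells with the transcript and less transcript per cell cannot be told apart.

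MYCTH_82981 had the opposite order. The JG207 libraries held 368 and 282 RPKM, and the DF1102 libraries 1061 and 1172 RPKM. Those of DF1406 held 1035 and 922 RPKM, and those of DF1501 held 752 and 788 RPKM. JG207 was lowest and lay clear of every other strain. DF1501 came next and lay clear of its neighbours too. How many of all genes separate in this way was not counted. DF1406 and DF1102 were close, since they did not overlap in RPKM but did in CPM scaled by TMM factors, so their difference was within the spread between libraries. Its ranks by RPKM were 350 and 443 in the JG207 libraries and 72 and 71 in the DF1102 libraries. Counts of this gene lay between 5557 and 22542.

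**Figure D1:**
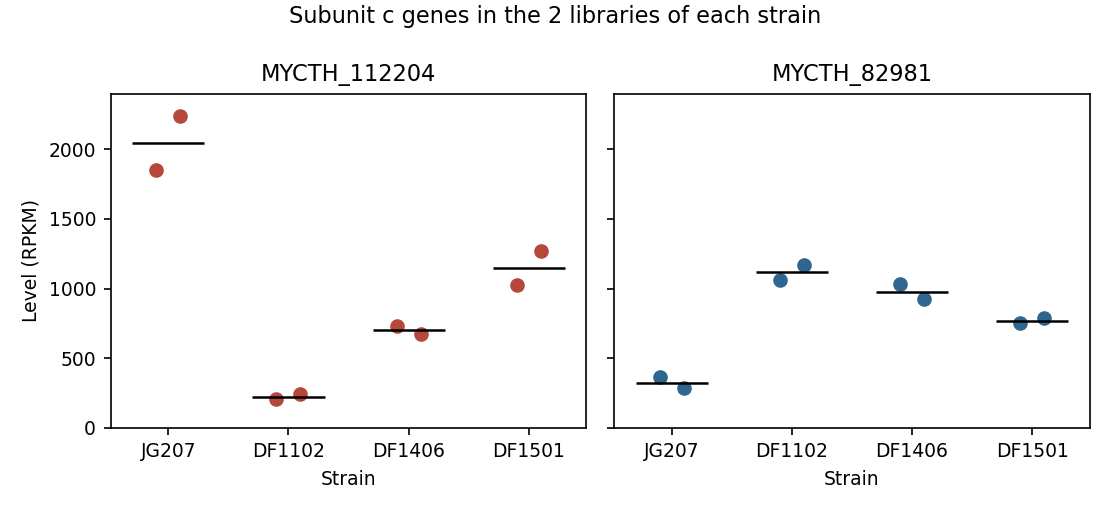
Level in RPKM of MYCTH_112204 (left) and MYCTH_82981 (right) in each library (points) and the mean of the 2 libraries of each strain (lines). MYCTH_112204 ran from 2236 RPKM in JG207 down to 207 in DF1102, and MYCTH_82981 from 282 in JG207 up to 1172 in DF1102.

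Folds were taken from edgeR's fit of all 8 libraries and are given with their standard errors (SE). MYCTH_112204 was 9.14-fold lower in DF1102, the strain labelled as the *Mtxyl1* deletion alone, than in JG207, a log2 fold change of -3.19 (SE 0.18). The fold of MYCTH_82981 in the same comparison was 3.41, a log2 fold change of 1.77 (SE 0.18). Other genes were called at an adjusted p up to 0.05 and a 2-fold difference or more. By this threshold 21.3% of the 8335 genes tested were called in this comparison, 10.2% higher and 11.1% lower. The pair was chosen on such values and is not counted against these shares.

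Strains with the Weimberg genes lay between JG207 and DF1102 for MYCTH_112204. Its log2 fold change against JG207 was -1.48 (SE 0.17) in DF1406 and -0.84 (SE 0.17) in DF1501, which are 2.80-fold and 1.79-fold lower levels. Against DF1102 its level was 3.27-fold higher in DF1406, at 1.71 (SE 0.17), and 5.11-fold higher in DF1501, at 2.35 (SE 0.18). Between the Weimberg strains it was higher in DF1501, at 0.64 (SE 0.17). MYCTH_82981 moved back less. Its log2 fold change was 1.64 (SE 0.18) in DF1406 and 1.23 (SE 0.18) in DF1501 against JG207, and -0.13 (SE 0.18) and -0.54 (SE 0.18) against DF1102. From DF1406 to DF1501 it was -0.41 (SE 0.18). The comparisons with JG207 share the same JG207 libraries, and those with DF1102 the same DF1102 libraries, so they are not independent of each other.

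The major transcript of the pair switched with the strain. MYCTH_112204 gave 83.4% and 88.8% of the summed RPKM of both genes in JG207 libraries, and 16.3% and 17.0% in DF1102 libraries. It gave 41.4% and 42.1% in DF1406 and 57.8% and 61.7% in DF1501. MYCTH_82981 was therefore the major transcript in DF1102 and DF1406 and the minor transcript in JG207 and DF1501, in both libraries of each. The shares depend on the gene lengths behind the RPKM values, which were 1331 bases for MYCTH_112204 and 919 for MYCTH_82981 as implied by counts and RPKM. With CPM in place of RPKM, MYCTH_112204 gave 90.0% in JG207, 22.5% in DF1102, 50.9% in DF1406 and 68.2% in DF1501, so DF1406 crossed the middle.

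Against JG207 the summed level of both genes differed less than either gene did. The sum was 2222 and 2519 RPKM in JG207 libraries, with 1268 and 1412 RPKM in DF1102 libraries. DF1406 had 1765 and 1593 RPKM and DF1501 had 1781 and 2057 RPKM. The sum in DF1102 was 1.77-fold lower than in JG207, a log2 fold change of -0.82 from the strain means. The median log2 fold change of 12 other subunits of the complex was -0.80 in the same comparison, with a range from -1.32 to -0.37. The fold of a sum lies between those of its parts, and these genes were picked for opposite directions, so this comparison is a description. The sum lay inside the range of the other subunits, whereas both single genes lay outside it. The same held for DF1406 and DF1501 against JG207, where the sum was at -0.50 and -0.30 and the other subunits ranged from -0.72 to -0.01 and from -0.81 to -0.14. In DF1501, however, MYCTH_112204, at -0.84 (SE 0.17), was outside that range by less than its SE, and it was at -0.76 without JG207 replicate 2 and -0.72 without DF1501 replicate 1. Against DF1102 the sum was at 0.33 in DF1406 and 0.52 in DF1501, where MYCTH_82981 was at -0.13 and -0.54, so there the sum did not differ less than that gene in DF1406 and was close to it in size in DF1501. The other subunits had medians of 0.54 and 0.48 in these comparisons, and of -0.26 and -0.30 in DF1406 and DF1501 against JG207. In DF1501 against DF1406 the sum was at 0.19. That lay outside the range of the other subunits, from -0.24 to 0.12, whose median was -0.03. The sum was 0.996 to 1.30 times the RPKM of the beta subunit (MYCTH_2316642) across the 8 libraries.

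**Figure D2:**
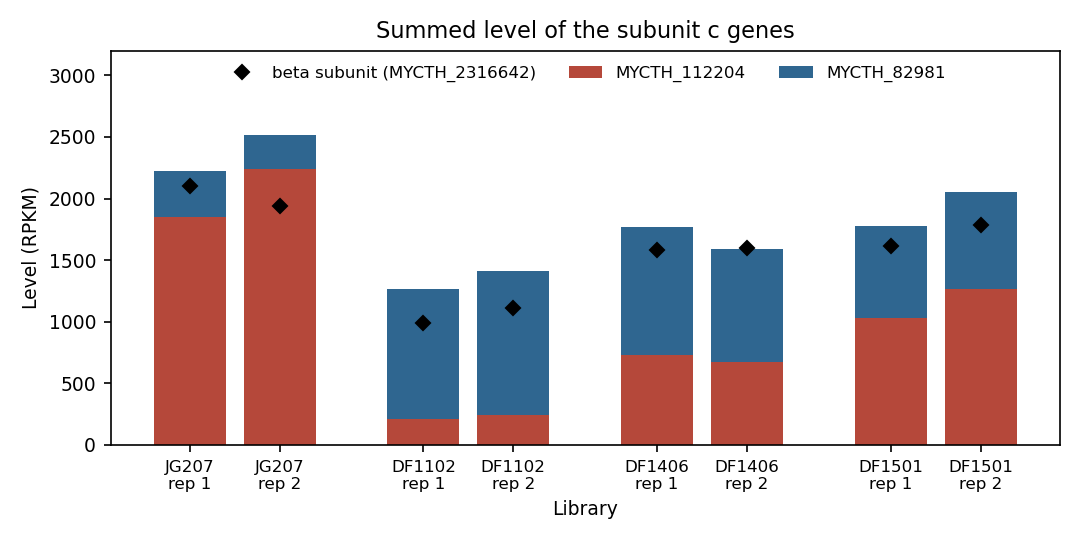
RPKM of MYCTH_112204 (red) stacked with that of MYCTH_82981 (blue) in each library, with the level of the beta subunit gene as a diamond. The stack lay between 1268 and 2519 RPKM, and the red part between 16.3% and 88.8% of it.

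The other genes of the complex were lower in DF1102 than in JG207. This list holds 15 genes, 12 subunits and 3 genes with a regulatory or structural role, all drawn by words in their descriptions. Of the 15, 2 passed the threshold including the 2-fold minimum, against 11.1% of all genes called lower, and the other 13 did not reach that fold. At an adjusted p up to 0.05 and any fold, all 15 were lower, against 29.5% of all genes. The median log2 fold change of the list was -0.79, beside -0.01 over all genes tested. Without JG207 replicate 1 or DF1102 replicate 1, 9 of the 15 had such an adjusted p, and all 15 stayed below 0. The count with the fold minimum was 4 without DF1102 replicate 2.

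Within F1, the alpha subunit (MYCTH_2088086) fell to 333 and 412 RPKM in DF1102 from 794 and 899 RPKM in JG207. Its log2 fold change was -1.18 (SE 0.17, edgeR adjusted p = 4.0e-04). The beta subunit (MYCTH_2316642), which carries the catalytic sites, had 992 and 1114 RPKM in DF1102, beside 2105 and 1942 RPKM in JG207. It was at -0.95 (SE 0.19, edgeR adjusted p = 0.00215), short of the fold of 2, and reached that fold without JG207 replicate 2 or DF1102 replicate 2, at -1.06 in each. Neither gene overlapped between the strains, and how many of all genes did so was not counted. In the central stalk, which turns with the ring, the gamma subunit (MYCTH_2294734) was at -0.94 (SE 0.15) and the delta subunit (MYCTH_2079768) at -0.84 (SE 0.14). The gamma subunit was past the fold of 2 without DF1102 replicate 2, at -1.11.

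The stator stalk holds F1 still while the ring turns. Its subunits b (MYCTH_2297004), 5 (MYCTH_57224), d (MYCTH_2297526) and h (MYCTH_2295174) were at log2 fold changes of -0.68, -0.52, -0.45 and -0.37. They had the smallest differences among the subunits together with f (MYCTH_2309800), at -0.55. Subunits e (MYCTH_2313301) and g (MYCTH_2313342) join the complexes into dimers in yeast. Subunit e fell to 119 and 138 RPKM in DF1102 from 324 and 313 RPKM in JG207, at -1.32 (SE 0.13, edgeR adjusted p = 4.8e-05), and g was at -0.79 (SE 0.12). The small subunit i/j (MYCTH_2316407) was at -0.81 (SE 0.23). The genes outside the subunits were MYCTH_2302731, matching a stabilizing factor, at -0.83, MYCTH_97642, matching a regulator of Atp6 and Atp8 expression, at -0.72, and MYCTH_2293957, matching a protein of crista junctions, at -0.53. No subunit came near the log2 fold change of MYCTH_112204, and none lay above 0 as MYCTH_82981 did.

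Genes for assembly of the complex went the other way. All 4 were above 0 in DF1102 against JG207, and 3 passed at an adjusted p up to 0.05, against 27.8% of all genes higher at that level. The highest was MYCTH_2305265, matching a protease that processes Atp6, at 0.73 (SE 0.11, edgeR adjusted p = 5.7e-04). MYCTH_2137079, needed for F0 assembly in yeast, was at 0.62 (SE 0.12), and MYCTH_2297787, needed for F1 assembly, at 0.57 (SE 0.13). The F1 chaperone match MYCTH_2294844 was at 0.40 (SE 0.17, edgeR adjusted p = 0.0779) and did not pass. None reached a fold of 2, in edgeR, DESeq2 or limma, and all 4 had an unadjusted p under 0.05. The median of the list was 0.59, beside -0.01 over all genes.

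**Figure D3:**
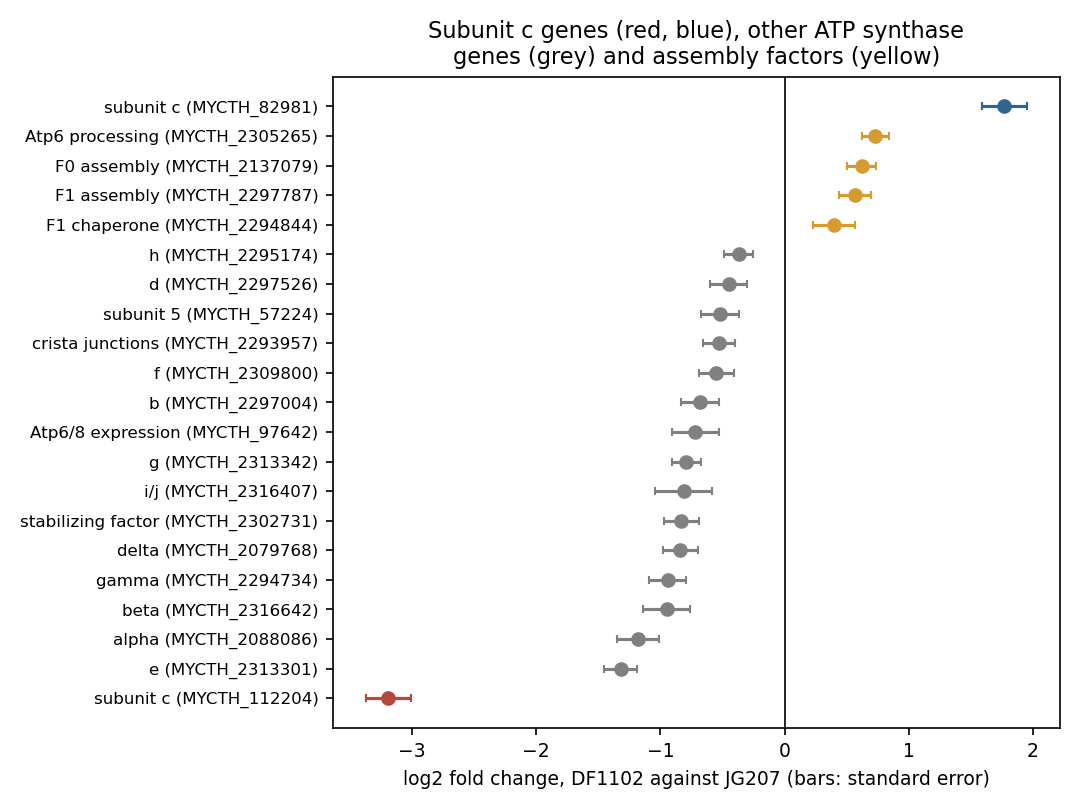
Log2 fold change in DF1102 against JG207 (points) with its standard error (bars) for the subunit c genes, the 15 other ATP synthase genes and 4 assembly genes. The 15 grey genes lay between -1.32 and -0.37 and the assembly genes between 0.40 and 0.73, while MYCTH_112204 was at -3.19 and MYCTH_82981 at 1.77.

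In the Weimberg strains the other ATP synthase genes were closer to JG207. Against JG207 the list had a median of -0.29 in DF1406 and -0.28 in DF1501. At an adjusted p up to 0.05 in edgeR, 4 of the 15 were lower in DF1406 and 2 in DF1501, against 19.7% and 9.56% of all genes. Under the 2-fold minimum the count was 0 in both, in edgeR, DESeq2 and limma alike, and 6 of the 15 in each strain had an unadjusted p under 0.05 with a lower level. Under that minimum 4.01% and 1.30% of all genes were called lower. MYCTH_112204 itself was 2.80-fold and 1.79-fold lower there. In edgeR 1 ATP synthase gene was called in DF1406 against JG207 without DF1406 replicate 1.

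Against DF1102, where the fold minimum was 1.5, 4 of the 15 rose in DF1406, against 7.81% of all genes called higher. These were subunit e, at a log2 fold change of 0.83 (SE 0.12, edgeR adjusted p = 0.00464), alpha and b, at 0.67 each, and beta, at 0.66. The alpha, b and beta subunits lost the call on leaving out any single library of these strains. Subunit e lost it without DF1102 replicate 1 only, at an edgeR adjusted p of 0.0611. In DF1501 against DF1102, 5 of the 15 rose, against 13.1% of all genes. They were the stabilizing factor match, at 0.86 (SE 0.14, edgeR adjusted p = 0.00287), e at 0.82, alpha at 0.79, beta at 0.68 and gamma at 0.66. Beta lost the call with only the 4 libraries compared, at 0.69 (edgeR adjusted p = 0.0646). It also lost the call without DF1102 replicate 1 or 2, at 0.59 and 0.79. Alpha and gamma lost it without DF1102 replicate 1, at 0.63 and 0.51. The count was 2 without DF1102 replicate 1 and 8 without DF1501 replicate 1. Medians over the list were 0.41 in DF1406 and 0.44 in DF1501, with -0.01 and 0.00 over all genes.

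Between DF1501 and DF1406, 1 of the 15 was higher, the stabilizing factor match MYCTH_2302731, at 0.61 (SE 0.14, edgeR adjusted p = 0.0445). It was named here after its value was seen. The call was lost without either library of DF1406 or DF1501. In this comparison 1.96% of all genes were called higher. The list median was -0.02, while MYCTH_112204 was at 0.64 and MYCTH_82981 at -0.41.

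Genes of the respiratory chain, which pumps the protons that turn the ring, were set beside the pair in DF1102 against JG207. In complex III, which passes electrons from ubiquinol to cytochrome c, 4 of 9 tested genes fell, and the list median was -0.98. The Rieske iron-sulfur protein (MYCTH_2316294) fell to 321 and 341 RPKM in DF1102 from 926 and 905 RPKM in JG207, at -1.47 (SE 0.13, edgeR adjusted p = 3.6e-05). Subunits 6 (MYCTH_2315552) and 9 (MYCTH_2294215) were at -1.35 and -1.33. In the complex IV list, which includes cytochrome c, 8 of 24 genes fell, with a median of -0.71, and the count was 5 without JG207 replicate 1. The gene matching cytochrome c (MYCTH_2316564) fell to 705 and 805 RPKM from 2428 and 2378 RPKM, at -1.68 (SE 0.18, edgeR adjusted p = 8.3e-05). Subunits Va (MYCTH_2312390) and VIb (MYCTH_2311966) were at -1.64 and -1.52. These counts stand against the same 11.1% of all genes called lower, and the lowest of these genes fell less than MYCTH_112204.

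Carriers that feed the ATP synthase were mixed. The ADP/ATP carrier (MYCTH_2316753), which exchanges ADP for ATP across the inner membrane, fell to 677 and 744 RPKM in DF1102 from 1651 and 1799 RPKM in JG207, at -1.28 (SE 0.17, edgeR adjusted p = 2.4e-04). Of the phosphate carrier matches, MYCTH_2316652 fell, at -1.23 (SE 0.14, edgeR adjusted p = 1.3e-04). The other match, MYCTH_2295825, had 457 and 458 RPKM in DF1102 libraries, beside 262 and 228 RPKM in JG207 libraries. It was at 0.89 (SE 0.21, edgeR adjusted p = 0.00610), short of the fold of 2, and past it without JG207 replicate 1, at 1.08. The phosphate carrier matches thus lay on opposite sides of 0, though only MYCTH_2316652 was called.

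In mitochondrial protein import, 2 of 22 genes fell, a share near the 11.1% of all genes called lower, and the list median was -0.32. Both encode partners in a small chaperone complex of the intermembrane space, MYCTH_2061176 at -1.32 and MYCTH_2304053 at -1.19. MYCTH_2295261, the smaller subunit of the processing protease, was at -0.91. The larger subunit, MYCTH_2304617, named after its value was seen, was at 0.72 (SE 0.14, edgeR adjusted p = 0.00218). In this list 18 genes lay below 0 and 4 above. Complex II, succinate dehydrogenase, had a median of -0.29 over 5 genes, and its largest difference was the flavoprotein subunit MYCTH_2294679, at -0.59 (edgeR adjusted p = 0.00649). MYCTH_2295791, matching an assembly protein, and MYCTH_79031, matching a protein of unknown function, were at -0.36 and -0.29. The other 2 genes of that list, named after their values were seen, lay above 0. They were the iron-sulfur subunit MYCTH_2295190 at 0.13 and MYCTH_2300328, matching a subunit, at 0.23. The 3 matches of NADH dehydrogenases that act outside complex I were MYCTH_2304512 at -0.84, MYCTH_2304268 at -0.64 and MYCTH_2309784 at 0.32. Of these lists the first alone held a gene past the fold of 2. MYCTH_2304512 passed it without DF1102 replicate 2.

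Vacuolar ATPase is the proton pump of the vacuole and also has a ring of proteolipid subunits. Of 16 genes in this list, 1 fell in DF1102, MYCTH_2087521, matching a protein needed for the pump but not part of it, at -1.12 (SE 0.15, edgeR adjusted p = 3.1e-04). It lost the call without DF1102 replicate 1, at -0.91. MYCTH_2296513, subunit C of the outer domain, was at -0.99, and passed the fold of 2 without JG207 replicate 1 (-1.07) or DF1102 replicate 2 (-1.04), which made the count 2. In the same list was MYCTH_86049, subunit e, at -0.46. The share called is below the 11.1% over all genes, and the list median was -0.05. The proteolipid genes, named after their values were seen, were MYCTH_2314502 (c) at -0.45 (SE 0.13, edgeR adjusted p = 0.0176), MYCTH_2297754 (c′) at -0.34 and MYCTH_2298561 (c″) at -0.06. The vacuolar ring genes therefore stayed within a narrow range beside the mitochondrial pair.

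Other genes that share a match were set beside the pair. Among tested genes, 331 other pairs had an identical description held by no other gene. Of these, 4 pairs (1.21%) had 1 gene called higher and the other lower in DF1102 against JG207, and among all possible pairs of tested genes the share was 2.26%. The count is small and lies near that background, so it is given as a description. Both genes were higher in 8 pairs and lower in 11, only 1 gene was called in 95, and no gene was called in 213. The gap between the log2 fold changes of a pair had a median of 0.62 over these pairs. The gap of the subunit c genes, which were chosen for it, was 4.96. A pair shares a yeast match, not necessarily a function.

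The opposite pair with the widest gap matched a quinone oxidoreductase, with MYCTH_2094591 at 7.00 (SE 0.95, edgeR adjusted p = 2.8e-04) and MYCTH_2299636 at -1.69 (SE 0.15, edgeR adjusted p = 4.0e-05). MYCTH_2094591 had 1.18 and 1.44 RPKM in JG207 libraries, so its fold rests on a level near the floor. Next came triose phosphate isomerase of glycolysis, with MYCTH_39694 at 3.55 (SE 0.18, edgeR adjusted p = 3.2e-06) and MYCTH_2304931 at -2.23 (SE 0.18, edgeR adjusted p = 2.1e-05). The remaining opposite pairs, named because they complete the count, matched the mitochondrial elongation factor Tu, with MYCTH_2303368 at 1.95 and MYCTH_66068 at -1.57, and fructose-bisphosphate aldolase, with MYCTH_2298452 at 1.17 and MYCTH_2300033 at -1.87. The aldolase gene MYCTH_2298452 was short of the fold of 2 without JG207 replicate 2, at 0.94, which left 3 of these pairs opposite.

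**Figure D4:**
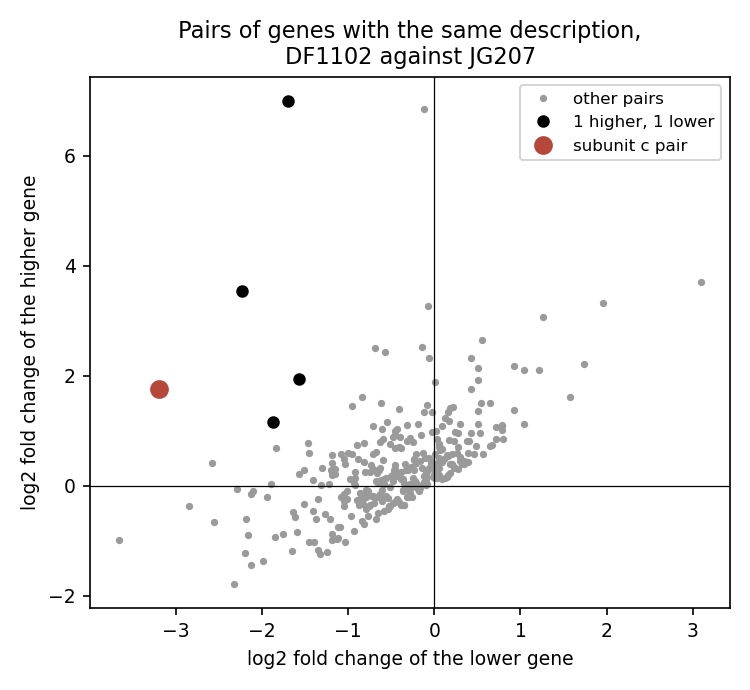
Log2 fold change in DF1102 against JG207 of the lower gene (horizontal) and the higher gene (vertical) in 332 pairs of genes with the same description, the subunit c genes included. The 4 other opposite pairs (black) lie in the upper left, and the subunit c pair (red) is at -3.19 and 1.77.

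The genes that neighbour the pair on the chromosome were looked up by order in the RefSeq annotation (assembly ASM22609v1), in which none of them overlaps a member. Before MYCTH_112204 lies MYCTH_2315941, which had 101 and 119 RPKM in JG207 libraries, and 44.1 and 50.2 RPKM in DF1102 libraries, at -1.22 (SE 0.13, edgeR adjusted p = 8.3e-05). After it lies MYCTH_10609, matching a histone acetyltransferase, at -0.05 (SE 0.15, edgeR adjusted p = 0.786). Before MYCTH_82981 lies MYCTH_102977, which had 13.3 and 14.1 RPKM in DF1102, beside 4.08 and 5.75 RPKM in JG207, at 1.48 (SE 0.19, edgeR adjusted p = 2.1e-04). After it lies MYCTH_69975, at 0.99 (SE 0.14, edgeR adjusted p = 2.9e-04), just short of the fold of 2, and at 1.08 without JG207 replicate 2 and 1.06 without DF1102 replicate 1. Of the 4 neighbours 2 were thus called, each in the direction of its member, against 21.3% of all genes called in either direction. Reads were counted where unique to a gene, and whether the counting used strand is not given in the sources used here.

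The likeness of other genes to each member was measured as Pearson's r of log2 CPM over the 8 libraries, among 6461 tested genes with a mean of at least 10 CPM. The 8 points are pairs of libraries from 4 strains, so a high r mostly reflects a similar pattern of the strain means. Nearest to MYCTH_112204 were MYCTH_2060364 at r = 0.998, MYCTH_2299207, matching orotate phosphoribosyltransferase of pyrimidine synthesis, at r = 0.997, and MYCTH_2306825 at r = 0.995. Their differences were smaller, with log2 fold changes in DF1102 against JG207 of -1.12, -1.25 and -2.15. Nearest to MYCTH_82981 were MYCTH_2118765 at r = 0.991, MYCTH_2307628 at r = 0.990 and MYCTH_116237, matching an aryl alcohol dehydrogenase, at r = 0.989. Their differences were larger, at 5.68, 2.53 and 4.40. For MYCTH_2118765 the JG207 libraries held 0.672 and 0.202 RPKM, so its fold rests on a level near the floor. MYCTH_116237 reached 8057 and 9574 RPKM in DF1102 libraries, beside 482 and 345 RPKM in JG207 libraries. MYCTH_2060364, MYCTH_2306825, MYCTH_2118765 and MYCTH_2307628 have no description. By Spearman's rho, 1 of the 3 genes nearest to MYCTH_112204 and none of those nearest to MYCTH_82981 stayed among the top 3, so these names depend on the measure.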

How the data were processed

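RNA-seq counts and RPKM of 8 libraries, 2 of each of 4 strains grouped by the labels, were analysed. The authors used SOAPnuke for trimming and TopHat2 2.0.12 for mapping, and the deposited counts are HTSeq 0.13.5 counts of reads unique to a gene, so any stretch that the subunit c genes share would be missing from both. How similar their sequences are was not analysed here. The deposited RPKM values are the authors' counts per gene length and library total, and were used for levels. In the JG207 replicate 1 column, 3 rows without a gene ID were left out, and 0 columns were left unused. The study tested with DESeq2.

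Here edgeR 4.0.16 (R 4.3.3) fitted all 8 libraries with TMM factors (0.954 to 1.05), a minimum count of 10 and quasi-likelihood tests with Benjamini-Hochberg adjustment over 8335 genes. Calls needed an adjusted p up to 0.05 and a 2-fold difference when JG207 was compared, or 1.5-fold otherwise. These are the study's thresholds against JG207 and DF1102. For DF1501 against DF1406 the 1.5-fold minimum was chosen here. The SE is the log2 fold change over the square root of F. Data were simulated for DF1102 against JG207 with 8272 genes and the same dispersion for every gene. Changes were planted in genes with a mean of at least 10 CPM. At an adjusted p up to 0.05 without the fold minimum, 98% of 100 genes at a fold of 2 were recovered in the right direction. So were 100% of 100 at a fold of 4, and 13 of 8072 unchanged genes passed. These shares do not describe calls that also need the fold minimum.

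The members and lists were chosen with earlier results of these data known. Lists were drawn by words in the deposited descriptions of the best *S. cerevisiae* match (4237 genes), and 7 genes were dropped from the vacuolar list after reading descriptions, before folds were computed. Named are the members, the ATP synthase and assembly genes, the 3 largest log2 fold changes of each other list, the 3 nearest genes by r, *Mtxyl1* and the 3 widest opposite pairs. Of the gene IDs, 9087 matched RefSeq locus tags. Alternatives were DESeq2 1.42.0, limma 3.58.1 on log2(RPKM + 1) or log2(RPKM + 0.1), other scalings and filters, a replicate block and leaving out each library.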

Additional observations from a re-analysis of the deposited data

How the results depend on the processing

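The members' log2 fold changes kept their direction and stayed within 1 SD in 120 of 120 alternative values, and leaving out a library reversed 0 of 48 and moved 6 by more. Without each library in turn, MYCTH_112204 ranged from -3.32 to -3.07 in DF1102, -1.54 to -1.40 in DF1406 and -0.95 to -0.72 in DF1501 against JG207. It ranged from 1.59 to 1.84 and 2.23 to 2.48 in DF1406 and DF1501 against DF1102, and from 0.54 to 0.74 between them. MYCTH_82981 ranged from 1.54 to 2.05, 1.41 to 1.93, 1.00 to 1.51, -0.22 to -0.04, -0.63 to -0.45 and -0.48 to -0.35 in the same order of comparisons. With 2 libraries a strain, the spread rests on few values. Of 1343 values of single genes, 1305 kept their call, 22 lost it, 16 gained it and 0 reversed.

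Main counts of genes called, in the order DF1102, DF1406 and DF1501 against JG207, DF1406 and DF1501 against DF1102, and DF1501 against DF1406, were 1772, 928, 499, 1011, 1777 and 316. Without a fold minimum the first 5 were 4774, 3075, 1773, 1815 and 2871, and the other ATP synthase genes called were 15, 4, 2, 7 and 8. Without each library in turn the ranges were 1704 to 1761, 813 to 887, 345 to 714, 166 to 452, 1183 to 2126 and 13 to 792 for all genes, and 2 to 4, 0 to 1, 0 to 0, 0 to 1, 2 to 8 and 0 to 0 for the ATP synthase genes. A strain left with 1 library is assumed to vary like the others. In limma on log2(RPKM + 1) without a filter the counts were 297 in DF1501 against JG207, 585 in DF1406 against DF1102 and 56 in DF1501 against DF1406. With a filter of 1 RPKM they were 362, 891 and 375. On log2(RPKM + 0.1), also without a filter, the last 2 were 593 and 51. DF1501 against DF1406 gave 509 genes in DESeq2 and 3 from its 4 libraries alone. The ATP synthase genes called there were 0 in both unfiltered limma fits and with 4 libraries alone, and 1 in the filtered limma fit. With library size alone as scaling, 50.6% of called genes were higher in DF1406 against DF1102 in place of 64.4%, and 64.0% in DF1501 against DF1406 in place of 51.6%. The cause of these differences was not tested.

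In DF1102 against JG207 without a fold minimum, the lists held 18 calls in complex IV, 14 in protein import, 6 in the vacuolar ATPase, 8 in complex III, 3 in assembly, 1 in complex II and 2 among NADH dehydrogenases, and 41 pairs were opposite with the subunit c pair among them. Without each library in turn these ranges, with the fold minimum, were 5 to 10, 2 to 2, 0 to 2, 3 to 6, 0 to 0, 0 to 0 and 0 to 1, with 2 to 3 carriers and 4 to 6 opposite pairs counted the same way. The ATP synthase count at an adjusted p alone, a setting chosen after seeing the data, ranged from 9 to 14. By Spearman's rho, 1 and 0 of the nearest genes stayed in the top 3 for MYCTH_112204 and MYCTH_82981. With CPM the share of MYCTH_112204 was 90.0%, 22.5%, 50.9% and 68.2% in JG207, DF1102, DF1406 and DF1501.

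The correlations of deviations between strains ran from -0.223 to 0.169, so replicate numbers showed no strong pairing of the libraries. With 2 libraries a strain, this cannot exclude batches shared between strains. With a replicate block the counts were 1758, 913, 491, 992, 1752 and 281, and MYCTH_112204 and MYCTH_82981 were at -3.19 and 1.78 in DF1102 against JG207. With the numbers of DF1501 crossed, added after seeing the data, DF1501 against DF1406 gave 365 genes.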
